A study of Mus musculus with 16 samples.

Results

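The peaks described here are the m6A peaks at the front of the mRNA, those that reached a start codon or lay wholly in a 5'UTR. They were taken from the annotation of the deposited peak table, with one entry per peak name. A peak was a member when its joined region annotation held a start codon, or was 5'UTR alone, and held no stop codon. In this way 1120 of 7069 peaks (15.8%) were chosen, 958 with a start codon and 162 in a 5'UTR only. Among the start codon peaks, 484 also touched both the 5'UTR and the coding sequence (CDS), 311 touched the CDS, 150 touched the 5'UTR, and the other 13 had a start codon alone or with a 3'UTR entry.

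N6-methyladenosine (m6A) is the most common internal modification of mRNA. It is written by a complex of METTL3, METTL14 and adaptors such as WTAP, mainly in a short motif around GGAC, and it is known to lie chiefly near stop codons and in 3'UTRs. The 5'UTR and start codon carry less of it, and m6A there has been linked to translation that does not need the cap. The antibodies also bind m6Am, a related mark on the first transcribed base of many mRNAs when that base is A, so signal at the very front of a transcript can come from either mark.

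The series compared peritoneal macrophages of wild-type (WT) and Adap-/- mice by MeRIP-seq, in which RNA is fragmented and the fragments caught by an m6A antibody (IP) are sequenced beside fragments that were not enriched (input). ADAP is an adaptor protein of blood cells encoded by Fyb1, and it has been tied to integrin signalling. The mice were sex-matched littermates on a C57BL/6 background, 6 to 8 weeks old, and Adap-/- is a germline knockout that every cell of the animal carries. All cells were drawn by thioglycolate, injected as a 3% solution 3 days before lavage, so each group consisted of elicited cells and none of resident cells alone. The 4 groups were WT mock, WT LPS, Adap-/- mock and Adap-/- LPS, where LPS stands for 1 ug/ml lipopolysaccharide, the Toll-like receptor 4 ligand of bacterial walls, for 6 h and mock for cells left without it. Each group had 2 RNA samples, each with an IP and an input library, which gave 8 RNA samples and 16 libraries. No source says whether the replicates came from separate mice, so the p-values below measure the spread between these samples, which may be technical.

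The transcript starts of 7 genes on which the results below turn are printed first, since the letters at the front of the mRNA are what an antibody against m6A or m6Am could meet there. Each line gives 10 bases before the annotated start and 20 from it on, taken from RefSeq windows of GRCm38.p6, whose coordinates differ from the GRCm39 coordinates of the peaks. The first transcribed base and any GGAC stand in capitals. The windows lie at chr11:49250542-49250571 (plus strand) for Mgat1, the one of its 3 annotated starts with a GGAC in these bases, at chr7:122970554-122970583 (plus strand) for Rbbp6, at chrX:139610610-139610639 (plus strand) for Rnf128 and at chr10:115315572-115315601 (minus strand) for Rab21. Those of Rnpepl1, Hexim1 and Jun lie at chr1:92910815-92910844 (plus strand), chr11:103116315-103116344 (plus strand) and chr4:95052203-95052232 (minus strand).
Mgat1: ccgccctcccGgggaaGGACcacattgccg
Rbbp6: gccgggaggtGcggccgctatGGACccctg
Rnf128: aggccgcggcAgtcgcgagcgagcatccct
Rab21: gtaggaggaaGgagacgccattagagggag
Rnpepl1: gcgacttcctGttgtgcccgcgcccggccg
Hexim1: gggagggaggGaggaaaagaggaggaggcg
Jun: gcagataagtGttgagctcaggctggataa
Rbbp6 held a GGAC on the transcript strand within these bases. Mgat1 held a GGAC only at the printed start of its 3, and that start was chosen for it. The other 5 genes held none. The front peaks of Mgat1 and Rbbp6 exceeded those at their stop codons below, but whether the peaks cover the printed starts was not checked. Of the 7, Rnf128 alone began with A. Over all 32841 RefSeq start windows, 34.4% began with A and 18.9% held GGAC in the first 50 bases. Only 695 of the 1033 genes that host the peaks could be matched by symbol, so a share over the set was void and none is given.

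A second set is shown because many of the transcripts that LPS raised are interferon-induced genes. In these promoter stretches the capitals mark GAAA, any 2 bases and GAAA again, or the reverse complement with TTTC at either side, the core of the interferon-stimulated response element, searched on both strands from 250 bases before to 50 after the start. The stretches lie at chr3:142620594-142620623 (plus strand) for Gbp2, chr16:10785600-10785629 (minus strand) for Socs1, chr11:48992304-48992333 (minus strand) for Tgtp1 and chr13:42301388-42301417 (plus strand) for Edn1.
Gbp2: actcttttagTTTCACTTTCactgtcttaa
Socs1: agacttgccgGAAAGAGAAAccgaaagcgg
Tgtp1: tccaggaatcGAAACTGAAAcctacctgac
Edn1: tagtgggtgtTTTCTTTTTCttagccctgc
Their matches began 59, 83, 77 and 78 bases before the start, in the same order. They are shown because they hold a match. Of the 28 windows of genes whose peaks rose by more than 4 on the log2 scale in both genotypes, 8 held one (28.6%) and 20 did not, beside 3.44% of all RefSeq windows. Only 21 of 37 such genes were matched by symbol, and the share holds for their windows alone. Slfn8 and Trim30a each entered the 8 with 2 starts, for Slfn8 by the same stretch. A match is a run of letters and not a measured binding site. The sequence under the peaks themselves was not analysed here, because no genome of the build of the peaks was at hand.

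The IP libraries held 5728590 to 19030373 reads on peaks and the input libraries 2121313 to 4325961, of which the 1120 peaks took 9.71% to 13.3% and 10.9% to 15.3%. The start codon peak of Fyb1, at chr15:6552384-6599121, had 2 and 2 input reads in WT mock, 1 and 5 in WT LPS, 5 and 3 in Adap-/- mock and 1 and 3 in Adap-/- LPS. At so few reads, and with the deleted part of the gene unknown, this peak did not check the genotype labels. Markers of macrophages were present throughout, with summed input levels of 55018 to 108010 counts per 1000000 reads (CPM), and they were lower after LPS in both genotypes. Neutrophil markers summed to 186 to 493 CPM and B cell markers to 42.6 to 224 CPM, each from 1 gene with a peak of 11 and 9 listed, and the fibroblast and mesothelial list to 41.5 to 92.6 CPM. None of these 3 lists had a member peak, and the T and NK cell and the eosinophil and mast cell lists had no peak at all. The neutrophil sum was higher and the B cell sum lower after LPS, and their part in the results was not tested. In such bulk samples, fewer cells of a type and less RNA per cell cannot be told apart.

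A pair of IP libraries went against their mock label, and this bears on the m6A comparisons that use a mock group. For 44 peaks of the set on transcripts that rose with LPS by more than 4 on the log2 scale in both genotypes, WT mock IP 1 held 69.9% and Adap-/- mock IP 2 held 61.0% of the mean level of the LPS IP libraries. The other mock IP libraries held 5.87% (WT mock 2) and 7.35% (Adap-/- mock 1), and the 4 mock inputs 1.97% to 3.49%. The 258 other peaks on such transcripts gave 71.6% and 58.6% in the same libraries, so the excess was also present away from the front of the mRNA. In the opposite direction, 6 peaks of the set on transcripts that fell by more than 3 with LPS kept 23.2% and 19.3% of their mock IP level in WT LPS IP 1 and 2, against 12.3% and 7.76% in Adap-/- LPS IP and 7.11% to 8.82% in the LPS inputs. Both enter the m6A ratios of their own samples. The mock excess thereby enters each m6A comparison with a mock group. The WT LPS values enter each one with WT LPS, also that of the genotypes after LPS. The comparisons of transcript level use the inputs alone.

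**Figure D1:**
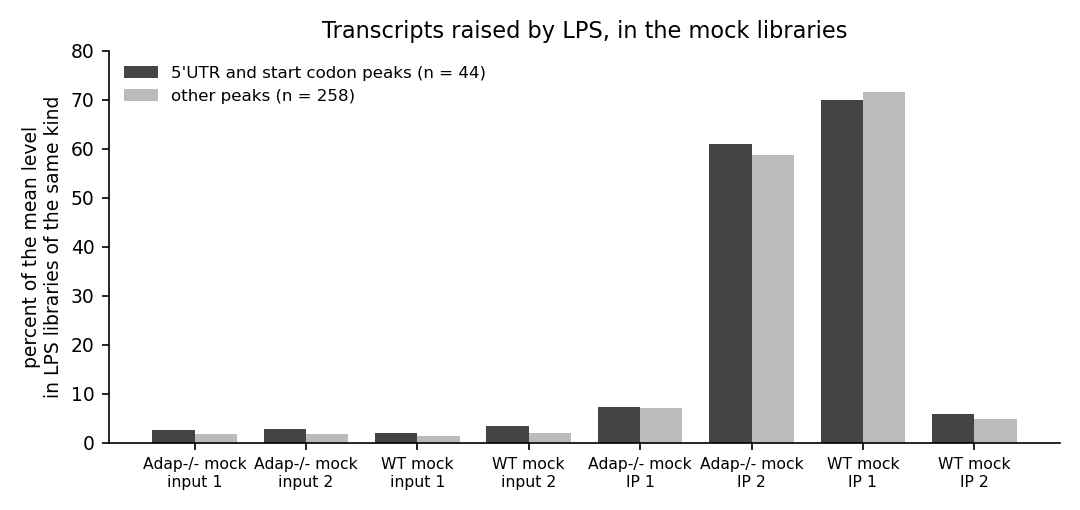
Level of transcripts raised by LPS in each mock library, as a percentage of the mean over the LPS libraries of the same kind (input or IP), for 44 peaks at 5'UTRs and start codons (dark bars) and 258 other peaks (light bars). Adap-/- mock IP 2 and WT mock IP 1 stood at 58.6% to 71.6%, and the other mock libraries at 7.35% or less.

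The 1120 peaks lay on 1184 annotated genes. Of them, 954 had 1 gene and 166 several, and for 129 the genes lay on both strands, so that reads of the partners cannot be told apart unless the counting used strand, which no source states. The peaks were assigned to 1033 host genes, 95 of which had more than 1, with 6 as the most on a single gene. They spanned more of the genome than other peaks. The median span was 200 bases against 175, and 263 (23.5%) ran over 1000 bases against 4.79% of other peaks, the longest over 56176. Such spans cross introns, and whether reads within the introns were counted is not given in the sources used here. Distances were taken to the start of the host gene given in the annotation of the deposited peaks, for 1111 peaks. They run along the genome with introns included, so the distance on the mRNA can be shorter. Of these, 42 (3.78%) began at the first base, 222 (19.98%) within 50 bases and 528 (47.5%) within 200 bases, with a median of 178 bases. A further 48 began before the annotated start. Peaks in a 5'UTR alone were nearer, with a median of 100.5 bases against 217 for start codon peaks.

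Enrichment was measured as the log2 ratio of IP to input in CPM, with 0.5 CPM added to each, in each RNA sample. The scaling puts a typical peak near 0, so a ratio says whether a peak was caught more or less than a typical peak and not what share of molecules was methylated. Over the 909 peaks with at least 10 input reads on average, the median ratio was -0.15 ± 0.14 (SD over 8 RNA samples), against -0.01 ± 0.04 for all other peaks. The kinds of front peak differed. Start codon peaks had a median of -0.19 ± 0.15 (810 peaks) and 5'UTR peaks of 0.15 ± 0.10 (99 peaks), while stop codon, CDS and 3'UTR peaks had 0.03, -0.02 and -0.08. The median of start codon peaks was below that of 5'UTR peaks in each of the 8 RNA samples. Over all peaks of each kind, 5'UTR peaks had fewer input reads, with a median of 17.2 against 57.8. Ratios were higher at low depth, as given below. The kinds were not matched for depth, and its part in their difference was not tested. Peaks that covered the 5'UTR, the start codon and the CDS together were lowest at -0.28, those with the CDS and start codon had -0.14, and those with the 5'UTR and start codon -0.04.

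By sample, the median of the set minus that of other peaks was 0.19 and -0.27 in WT mock, -0.13 and -0.14 in WT LPS, -0.20 and -0.14 in Adap-/- mock, and -0.23 and -0.21 in Adap-/- LPS. The only positive value was that of WT mock replicate 1, a library that stood apart above. Without it the mean difference was -0.19, and without both doubted mock samples -0.20, against -0.14 ± 0.14 over all 8. The ratio was lower at higher depth in the set and in other peaks alike. From 10 to 29 input reads the set had 0.49 and other peaks 0.61, from 30 to 99 reads -0.06 and 0.11, from 100 to under 300 reads -0.46 and -0.18, and from 300 reads on -0.86 and -0.43. The set was thus below other peaks in each of the 4 depth classes. By span, peaks of at most 1000 bases had -0.13 against -0.01, and longer ones -0.23 against -0.20. With no minimum on input reads the difference was 0.01 in place of -0.14. By genomic distance, introns included, peaks that began at the first base of the gene had -0.32 ± 0.60 (35 peaks). Those from 1 to 50 bases had -0.23 ± 0.30 (134 peaks), and those over 1000 bases away -0.05 ± 0.07 (281 peaks). In the doubted samples the first-base peaks had 0.89 (WT mock 1) and 0.23 (Adap-/- mock 2), against 0.05 and -0.04 over 1000 bases away. In every other sample they were the lower ones, at -0.80 to -0.21 against -0.16 to 0.01. The pooled value hides a split by kind. First-base peaks with a start codon had -0.45 ± 0.63 (30 peaks), and those in a 5'UTR alone 0.51 ± 0.26 (5 peaks), from 0.23 to 1.04 over the samples.

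**Figure D2:**
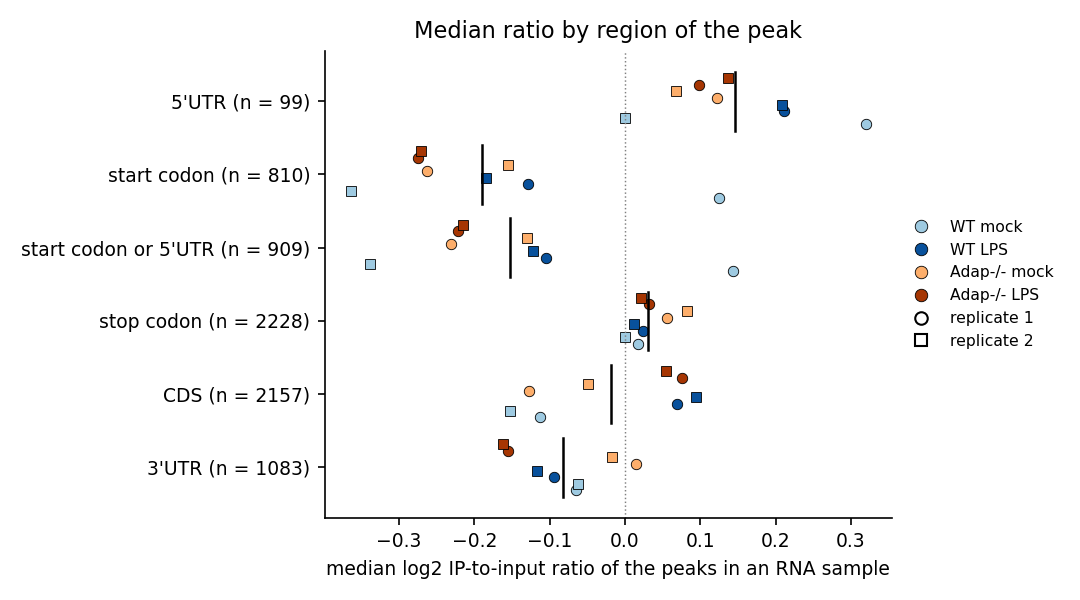
Median log2 IP-to-input ratio of the peaks of each region class in each of the 8 RNA samples (points, coloured by group, shape by replicate), with the mean over samples as a black line. Start codon peaks lay below stop codon peaks in all samples but WT mock replicate 1, and 5'UTR peaks ranged from 0.00 to 0.32.

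Among peaks with at least 20 input reads on average, those with the highest ratios included the peaks of a pair of glycan-synthesis enzymes. Mgat1, the enzyme that starts complex N-glycans, had a 5'UTR peak (chr11:49136227-49138335), and whether it covers the start printed above was not checked. Its ratios were 1.24 and 1.56 in WT mock, 2.0 and 1.99 in WT LPS, 2.2 and 2.46 in Adap-/- mock and 2.25 and 2.19 in Adap-/- LPS. All 8 samples were above 1, the WT mock samples were lowest, and the Adap-/- groups overlapped each other above both WT groups. St3gal2, a sialyltransferase, had a start codon peak at 1.90 ± 0.52 (SD, 8 RNA samples), Spart, the gene of spartin, one at 1.89 ± 0.68, and Ccdc186 one at 1.88 ± 0.33. The highest mean above that minimum, 2.34 ± 1.87 on a 5'UTR peak labelled Olfr56 that spans 6487 bases, rested on mock inputs of 0 or 1 read and was 0.84 to 0.97 in the 4 LPS samples. Peaks with fewer reads, some of which had higher means, were not ranked. The other 5 of the 10 highest were D17h6s53e, Mettl6, Tgtp1, Rgs1 and PTP4A2, from 1.43 to 1.67.

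The lowest ratios included a peak of a ferritin gene. This peak, labelled Ftl1 for a copy of the ferritin light chain gene on chromosome 13 (chr13:74554643-74554692), had -2.26 and -4.61 in WT mock, -2.89 and -3.72 in WT LPS, -5.11 and -3.27 in Adap-/- mock and -5.43 and -4.16 in Adap-/- LPS. Every sample was below -2, and the lowest values came from Adap-/- LPS 1 and Adap-/- mock 1. How reads shared by ferritin copies were counted is not given in the sources used here, so its value is uncertain. The start codon peak of Ftl1 on chromosome 7 had -1.49 ± 0.46. ARF6, a GTPase of endosome recycling named here as in the table, had -2.94 ± 1.2, Rragc, a Rag GTPase of amino acid sensing, -2.85 ± 0.75, and Rab20, a phagosomal GTPase, -2.73 ± 1.08. The 5 peaks with the most input per length were on Fth1 and Ftl1 (ferritin), Ctsl (cathepsin L), Mpeg1 (perforin-2) and Cd68 (a lysosomal glycoprotein of macrophages). Their mean ratios ran from -1.49 to -0.77.

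Within the same gene the order turned in the median, with front peaks higher than stop codon peaks. For 209 genes that had both a front peak and a stop codon peak, with peaks of 1 gene only, the median difference (front minus stop codon) was 0.11 and 0.03 in WT mock, 0.25 and 0.30 in WT LPS, 0.09 and -0.05 in Adap-/- mock, and 0.24 and 0.25 in Adap-/- LPS. The mean was 0.15 ± 0.13 (SD over 8 RNA samples), and 7 of 8 samples were above 0. On average 121 genes were higher at the front, 43 were higher in all 8 samples, and 26 were lower in all 8. The difference passed 1 in 38 genes and lay below -1 in 22. Values were higher in the 4 LPS samples than in the 4 mock samples with no overlap, and the doubted mock samples were among the latter. Over all peaks of each kind, the median was 47.2 input reads at the front and 122 at stop codons. Ratios were higher at low depth, as given above. The ends were not matched for depth, and its part in the difference was not tested.

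Genes at either end showed how far the ends of one mRNA can part. In Mgat1 the 5'UTR peak exceeded the stop codon peak by 2.13 ± 0.39 (SD over 8 RNA samples), from a mean of 1.99 at the front and -0.15 at the stop codon, and the lowest sample still differed by 1.32. Rbbp6, a ubiquitin ligase that binds the retinoblastoma protein, differed by 2.05 ± 0.69, Sirpa, the receptor for CD47 on macrophages, by 1.99 ± 0.39 and Spart by 1.96 ± 0.54. The widest mean, 2.14 ± 1.49 for a Schlafen gene labelled SLFN12 (ENSMUSG00000078763), had the widest spread. At the other end stood Hexim1, which holds the transcription elongation factor P-TEFb inactive. Its front peak was lower by a mean of -2.58 ± 0.31, at -0.31 against 2.27 at the stop codon, and every sample lay between -2.96 and -1.92. Jun, the AP-1 factor, differed by -2.49 ± 0.49, and Nrp2, Tmem51 and Atp2b1, a plasma membrane calcium pump, by -1.91 ± 0.84, -1.86 ± 0.74 and -1.62 ± 0.33. These 10 were the extremes among 176 genes with at least 20 input reads at both ends, and each kept its direction in all 8 samples.

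**Figure D3:**
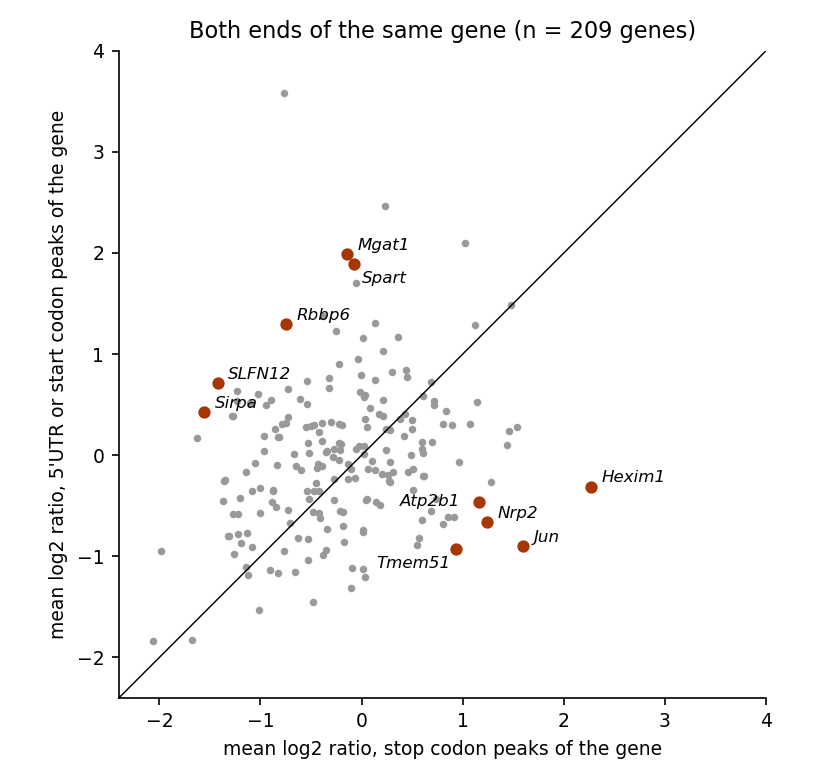
Mean log2 IP-to-input ratio over 8 RNA samples of the 5'UTR or start codon peaks of a gene (vertical axis) against that of its stop codon peaks (horizontal axis), 1 point per gene for 209 genes, with the line of equal ratios. The 5 genes highest above and the 5 lowest below the line among those with at least 20 input reads at both ends are named, and 121 of the 209 genes lay above it.

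The first comparison asked whether loss of ADAP altered m6A at the front of mRNAs in LPS-treated cells. No member peak passed an adjusted p of 0.05 in edgeR, where 0.0142% of all peaks, a single one outside the set, did. A looser rule asked only for a log2 difference beyond 1 in either direction and an unadjusted p under 0.05. By it, 25 of 1115 tested peaks (2.24%) were called higher in Adap-/- LPS than in WT LPS, beside 1.32% of all peaks, and 48 (4.30%) lower, beside 2.82% of all peaks. Most fitted values of the set were negative, as they also were without LPS (given below). The set had -0.16 and all peaks 0.01, with -0.15 for start codon peaks, -0.19 for 5'UTR peaks and 0.05 for stop codon peaks, and 41.3% of member peaks lay above 0 against 50.96% of all peaks. DESeq2 calls were counted over member peaks only, in this and the later comparisons, so no share over all peaks stands beside them. With DESeq2, 4 member peaks passed an adjusted p of 0.05, all lower in Adap-/- LPS. They were on Rnf128, SF3B1, Krcc1 and Lpl, the gene of lipoprotein lipase. Krcc1 and Lpl, named only because this test called them, had -1.60 (adjusted p = 0.0228, DESeq2) and -1.84 (adjusted p = 0.000487, DESeq2). The 73 calls of edgeR at the looser rule were 35 without WT LPS replicate 1.

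The lowest fitted value belonged to Rnf128, a ubiquitin ligase also called GRAIL (chrX:138511651-138511975, start codon and CDS, its start printed above). Its ratios were -0.09 and -0.69 in WT LPS and -4.13 and -2.69 in Adap-/- LPS, from 630 and 651 against 112 and 166 IP reads and 248 and 156 against 291 and 210 input reads. The WT LPS samples were high, and both mock groups, at -2.44 and -3.90 (WT) and -4.98 and -4.21 (Adap-/-), lay with Adap-/- LPS. The fitted difference was -3.03 ± 0.72 on the log2 scale (± SE, as for all fitted differences below; unadjusted p = 0.00139, adjusted p = 0.379, edgeR), and it kept its sign and its unadjusted call in all 20 settings, from -3.93 to -2.42. Its input fell with LPS by 2.89 in WT and by 2.60 in Adap-/- on the log2 scale, and the WT LPS IP libraries kept more of the transcripts that fell with LPS than the other LPS libraries did. The part of this in the value was not tested.

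SF3B1, a subunit of the splicing factor that recognises the branch point, had ratios of 0.83 and -1.08 in WT LPS and -2.56 and -2.64 in Adap-/- LPS, with a fitted difference of -3.02 ± 0.73 (unadjusted p = 0.0015, adjusted p = 0.379). Its WT replicates lay far apart, and the Adap-/- LPS samples held only 24 and 13 IP reads over a span of 8113 bases. Adgre1, which encodes the macrophage marker F4/80, had 0.24 and 0.89 against -1.5 and -1.11, a fitted difference of -1.90 ± 0.62 (unadjusted p = 0.0106, adjusted p = 0.557). In AP2M1, the medium chain of the AP-2 clathrin adaptor, the ratios were 1.27 and 1.23 against -1.48 and 0.13, and the difference of -1.89 ± 0.81 kept its call in 12 of 19 settings. Without WT LPS replicate 1 SF3B1 had -1.85, and AP2M1 had -1.19 without Adap-/- LPS replicate 1 and -2.98 without replicate 2. Adgre1 lost its call without Adap-/- LPS replicate 1 or WT LPS replicate 2. The groups do not overlap in these peaks because the rule for naming them required it. The peaks of SF3B1, Adgre1 and AP2M1 all spanned more than 1000 bases.

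Higher ratios after ADAP loss were led by Rnpepl1, an aminopeptidase-like gene with a pair of neighbouring start codon peaks. The peak at chr1:92838780-92838854 had -1.23 and -1.04 in WT LPS and 0.08 and 1.98 in Adap-/- LPS, with IP reads of 52 and 131 against 434 and 328. Its fitted difference was 2.03 ± 0.76 (unadjusted p = 0.0209, adjusted p = 0.636), and that of the other peak 1.96 ± 0.71. The Adap-/- replicates differed from each other by more than the gap between the nearest samples of the groups. Rab21, an endosomal GTPase of integrin traffic, had -1.15 and -0.70 against 0.58 and 0.88 (1.72 ± 0.58, unadjusted p = 0.0121, adjusted p = 0.566). Pigm, a mannosyltransferase of the GPI anchor, had -0.38 and -0.55 against 1.79 and 0.45 (1.65 ± 0.64). B4galt6, which makes lactosylceramide, had -0.89 and -0.44 against 1.22 and 0.44 (1.64 ± 0.43, unadjusted p = 0.00297, adjusted p = 0.405), and its 4 mock values from -0.47 to -0.35 lay with those of WT LPS. Rnpepl1 had 1.26 without Adap-/- LPS replicate 2 and 3.22 without replicate 1, and Pigm 0.96 without Adap-/- LPS replicate 1 and 2.40 without replicate 2. Rnpepl1, Rab21 and Pigm lost their unadjusted call without 1 LPS library or another, and B4galt6 kept it. All of these stayed above an adjusted p of 0.05. Split by what LPS did to the input in WT, 33 lower and 23 higher calls came from 787 member peaks whose input changed by 2 or less on the log2 scale (4.19% and 2.92%, against 1.90% and 1.38% of 4797 other peaks). A further 8 lower calls came from 39 peaks whose input fell by more than 2 (20.5%, against 17.8% of 314 other peaks).

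**Figure D4:**
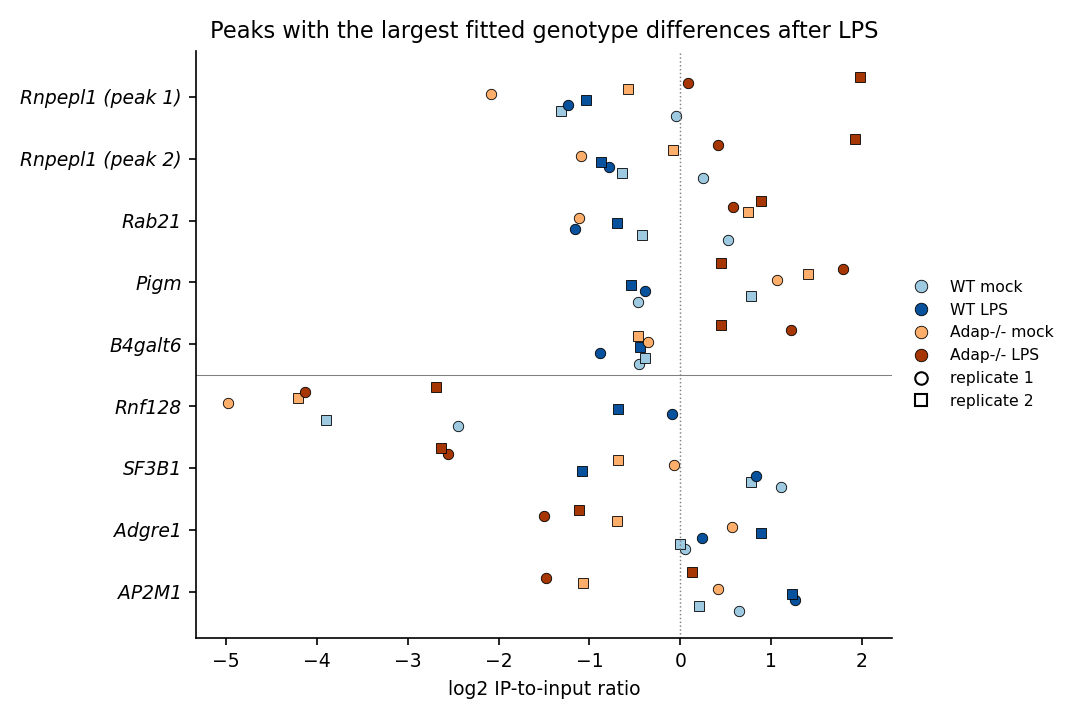
Log2 IP-to-input ratio in each of the 8 RNA samples for the 5 highest (upper rows) and 4 of the 5 lowest (lower rows) fitted differences between Adap-/- LPS and WT LPS among the peaks at 5'UTRs and start codons. Rnf128 in WT LPS stood at -0.09 and -0.69, apart from the other 6 samples at -2.44 or less, and none of the 9 peaks passed an adjusted p of 0.05.

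Input reads on a peak follow the level of its transcript, and here some differences between the genotypes passed an adjusted p of 0.05. After LPS, 9 of 972 tested member peaks (0.926%) were higher in Adap-/- at an adjusted p below 0.05 and an absolute log2 fold change above 1 (1.25% of all peaks), and 7 (0.72%) were lower (1.31% of all peaks). Both shares were below those over all peaks. Pdpn, the gene of podoplanin, had 39.9 and 35.1 CPM in WT LPS and 12.5 and 10.7 in Adap-/- LPS. The difference was -1.69 ± 0.24 on the log2 scale (adjusted p = 0.000115, edgeR). Aldh1b1, a mitochondrial aldehyde dehydrogenase, had 36.2 and 41.7 against 13.6 and 13.9 CPM (-1.5 ± 0.27, adjusted p = 0.000811). Anxa1, the anti-inflammatory annexin A1, had 19.9 and 28.1 against 9.96 and 6.50 CPM (-1.51 ± 0.30, adjusted p = 0.00238), on a peak that also touches a gene of the opposite strand. H2BC4, a histone gene, and Armcx6 also fell, by 1.42 and 1.32 on the log2 scale. Armcx6 had -0.79 without WT LPS replicate 1 and its adjusted p was then 0.388.

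Among the transcripts that were higher, Ppp1r12b, a subunit of myosin phosphatase, had 17.1 and 11.7 CPM in WT LPS and 38 and 41.3 in Adap-/- LPS (1.43 ± 0.24, adjusted p = 0.000547). It was higher in Adap-/- mock as well, at 31.8 and 41.0 against 16.3 and 22.9 CPM. Lcn2, the siderophore-binding lipocalin 2, had 12.6 and 17.8 against 38.4 and 40.8 CPM (1.38 ± 0.28, adjusted p = 0.00228), and its mock libraries held 0 to 4 reads. Ednrb, an endothelin receptor, rose by 1.55 ± 0.39, Irf2bp2, a corepressor of interferon regulatory factors, by 1.87 ± 0.50 and Cd38, an ectoenzyme that consumes NAD, by 1.87 ± 0.59, each from at most 42 input reads in any LPS library. Ednrb had 2.36 without WT LPS replicate 1 and 1.08 without replicate 2. Ednrb, Irf2bp2, Cd38 and Lcn2 lost their call without 1 library or another. All replicates of one genotype lay on one side of the other, as the rule for naming them required.

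Without LPS the genotypes differed in 34 member peaks. Higher in Adap-/- were 12 of 972 (1.23%, against 1.84% of all peaks) and lower 22 (2.26%, against 1% of all peaks). Fpr1, the receptor for bacterial formyl peptides, had 86.8 and 74.9 CPM in WT mock and 366 and 406 in Adap-/- mock, a rise of 2.25 ± 0.12 (adjusted p = 1.03e-09). The Schlafen gene labelled SLFN12L (ENSMUSG00000000204) rose on all 3 of its peaks, by 2.37 ± 0.19 on the peak with the most reads, where 16.7 and 12.1 CPM stood against 67.9 and 81.6. A peak labelled H2-K1 (ENSMUSG00000016283), a major histocompatibility complex class I gene, rose by 2.21 ± 0.55 from 2 to 19 reads. It was no longer called without Adap-/- mock replicate 2 or WT mock replicate 2. Genes of these families share sequence, and how reads that map to several copies were counted is not given in the sources used here.

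The lowest values were those of Tgtp1, an interferon-induced GTPase, and Serpina3g, a serine protease inhibitor. On the Tgtp1 peak with the most reads, WT mock had 19.0 and 94.4 CPM and Adap-/- mock 6.98 and 9.34, with -2.76 ± 0.51 (adjusted p = 0.00123). WT mock replicate 2 alone stood far above the rest, and without it the difference was -1.19. Serpina3g behaved likewise, with 24.4 and 79.4 against 11.6 and 7.19 CPM, -2.45 ± 0.42 in all samples and -1.37 without that replicate. Without it 14 peaks were higher and 7 lower, in place of 12 and 22. Cdkn1c, the cell cycle inhibitor p57, did not depend on it, at 38.4 and 39.5 against 10.9 and 10.8 CPM (-1.84 ± 0.29, adjusted p = 0.00031). Pdpn was lower here too, at 14.3 and 15.4 against 4.27 and 4.67 CPM (-1.72 ± 0.32, adjusted p = 0.00124), so it was the one gene among the 5 lowest of both genotype comparisons.

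The m6A ratio in mock cells gave few calls, and most of those named were lost without the doubted samples. In edgeR no member peak and 0% of all peaks passed an adjusted p of 0.05, and DESeq2 called none of the set. The median fitted value was -0.145 for the set and -0.0088 for all peaks, near the -0.16 and 0.01 found after LPS. Above 0 lay 40.2% of member peaks and 48.98% of all peaks. At the looser rule 11 peaks (0.987%) were higher in Adap-/- mock, beside 0.68% of all peaks, and 12 (1.08%) lower, beside 0.595% of all peaks. With both doubted samples left out the counts were 33 and 9. The 23 calls in all were 44 without WT mock replicate 1, 77 without WT mock replicate 2, 94 without Adap-/- mock replicate 1 and 15 without WT LPS replicate 1. Nod2, a sensor of bacterial muramyl dipeptide, had ratios of 0.44 and 0.14 in WT mock and 1.41 and 1.76 in Adap-/- mock (1.35 ± 0.37, unadjusted p = 0.0035, adjusted p = 1), and its difference ranged from 1.19 to 1.56 over the settings. Mtdh (metadherin) had 1.95 ± 0.75, Mis12, a kinetochore gene, 1.26 ± 0.46, Zcchc2 2.09 ± 0.86 and the peak shared by Ndufa13 and Tssk6 1.64 ± 0.72. On the lower side Sirt2, a deacetylase, had -0.65 and -1.09 against -1.58 and -3.38 (-1.48 ± 0.53), and Wdr24 of the nutrient-sensing GATOR2 complex 0.20 and 0.16 against -1.52 and -0.95 (-1.52 ± 0.58). Trim30a (ENSMUSG00000057143), Gadd45b and Tgm2 had fitted values of -2.23, -2.13 and -1.84. Without both doubted samples the values of Zcchc2, Mis12 and the peak of Ndufa13 and Tssk6 were 0.74, 0.47 and 0.29, those of Trim30a, Gadd45b and Sirt2 -0.74, -0.76 and -0.49, and that of Tgm2 -1.36. Of these 10 peaks, Nod2 and Mtdh kept their call there. Single libraries moved several values. Mtdh had 1.29 without WT mock replicate 1 and 3.72 without WT mock replicate 2. Without WT mock replicate 1, Trim30a had -1.09 and Gadd45b -1.18. Without Adap-/- mock replicate 1, Gadd45b had -3.98, Sirt2 -2.61 and the Ndufa13 and Tssk6 peak 2.65, and without Adap-/- mock replicate 2 Sirt2 had -0.72, Zcchc2 1.38, Mis12 0.83 and the Ndufa13 and Tssk6 peak 0.55.

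LPS moved the transcripts behind a large share of the peaks. In WT, 240 of 972 member peaks (24.7%, against 21.3% of all peaks) rose and 113 (11.6%, against 15.6% of all peaks) fell in input, and in Adap-/- 239 (24.6%, against 19.6% of all peaks) rose and 96 (9.88%, against 13.3% of all peaks) fell. The balance between the directions depends on the scaling. With upper-quartile scaling 196 rose and 244 fell in WT, and 196 and 176 in Adap-/-. Of the peaks that rose in WT, 217 (90.4%) also rose in Adap-/-, which is 90.8% of those that rose in Adap-/-. Of those that fell, 69 did so in both, 61.1% of the WT and 71.9% of the Adap-/- peaks, and none rose in one genotype and fell in the other. Transcripts with a 5'UTR peak had a median log2 fold change of 0.26 in WT and 0.33 in Adap-/-, and those of the whole set 0.01 and 0.12, beside -0.05 and -0.04 for all peaks.

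The steepest rises were those of inflammatory effectors. Nos2, the inducible nitric oxide synthase, had no input read in either WT mock library and 318 and 360 in WT LPS, at least 124-fold more than 3 reads per library would give. In Adap-/- it had 1 and 0 reads in mock and 328 and 212 after LPS. Il6 had none in the 4 mock libraries and 72 and 34 (WT) and 90 and 68 (Adap-/-) after LPS, at least 18.8-fold and 28.9-fold more on the same basis. Edn1, the endothelin-1 gene, had 0 and 1 in WT mock and 344 and 285 in WT LPS. In Adap-/- it had 0 and 1 in mock and 269 and 224 after LPS. The peak labelled Olfr56 had none in WT mock and 240 and 261 in WT LPS, at least 91.2-fold more, and Il1b had 0 and 2 reads in Adap-/- mock and 304 and 324 in Adap-/- LPS. Trim30a (ENSMUSG00000078616), an interferon-induced ubiquitin ligase, went from 1.16 and 2.08 to 927 and 749.8 CPM in WT (9.11 ± 0.23, adjusted p = 9.97e-17). All of these passed an adjusted p of 0.05 in both genotypes.

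Among transcripts that fell, Dbp, a clock-controlled factor, had 16 and 12 against 1 and 0 in WT and 41 and 33 against 1 and 0 in Adap-/-. Haus8, a subunit of the augmin complex of the spindle, had 17 and 8 reads in WT mock and none in WT LPS, at least 3.78-fold fewer against 3 reads per library. Slc43a2, an amino acid transporter, had 5'UTR levels of 60.1 and 64.0 CPM in WT mock and 3.25 and 5.15 in WT LPS. It fell by 3.76 in WT and by 3.96 in Adap-/- on the log2 scale (adjusted p = 1.17e-10 and adjusted p = 4.53e-11). Kiaa0513 fell by 4.14 in WT, and Rgs2, a regulator of G protein signalling, and Rab7b, a late endosomal GTPase, fell by 4.25 and 3.66 in Adap-/-. Rgs2 fell by 6.63 without Adap-/- LPS replicate 1.

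Grouped by role, interferon-stimulated genes had the most member peaks of the lists described here. The input counts of this and the next lists stand beside the shares over all peaks. Of all peaks 21.3% rose and 15.6% fell in WT, and 19.6% and 13.3% in Adap-/-. Calls on other peaks of the listed genes were not counted. Of 62 listed genes 25 had a member peak, and of their 30 peaks tested in input 30 rose with LPS in WT and 29 in Adap-/-, with medians of 4.51 and 3.94. Irf7, the factor that amplifies interferon, rose by 4.70 in WT and 3.47 in Adap-/- (log2), Gbp2, a guanylate-binding GTPase with the promoter stretch printed above, by 4.53 in WT and 4.52 in Adap-/-, and Irgm1, an immunity-related GTPase, by 3.77 in WT and 4.02 in Adap-/-. Of 63 inducible transcription factors, 18 had 22 member peaks, of which 12 rose and 5 fell in WT, and 12 and 4 in Adap-/-. Junb rose by 1.80 in WT and 1.66 in Adap-/- and Cebpb by 1.12 in WT and 0.98 in Adap-/- (in the latter genotype just under the fold threshold), whereas Cebpa, a factor of myeloid differentiation, fell to differences of -2.45 in WT and -2.61 in Adap-/-. Of 11 tested cytokine peaks 9 rose and 1 fell in WT, and 8 and 1 in Adap-/-. Gdf15 rose by 3.25 in WT and 3.10 in Adap-/-, and Vegfa, the vascular growth factor, was the one that fell, with -1.27 in WT and -2.0 in Adap-/-.

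Feedback inhibitors were fewer. Of 21 genes of NF-kB feedback 5 had a member peak, and 3 of 4 tested rose in each genotype. Nfkbia, the inhibitor IkB-alpha, rose by 2.53 in WT and 2.14 in Adap-/-, Tnfaip2 by 1.63 in WT and 1.91 in Adap-/- and Nfkbie by 2.45 in WT and 2.13 in Adap-/-. Of the SOCS family and its relatives 4 of 12 had one. Socs1, the inhibitor of JAK kinases whose promoter stretch is printed above, rose by 4.96 in WT and 4.58 in Adap-/-, and Socs6 fell, with -1.60 in WT and -1.10 in Adap-/-. Of 21 genes of receptor tyrosine kinase and MAP kinase feedback 4 had one, and 1 rose. That was Spry1, a Sprouty inhibitor of this signalling, with 4 and 0 input reads in WT mock, 12 and 14 in WT LPS, 3 and 2 in Adap-/- mock and 22 and 16 in Adap-/- LPS. Dusp6, Spry2 and Dusp1 had input differences from -0.96 to -0.19, none past both thresholds.

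Of 40 stress-response genes, several of which are translated through upstream reading frames, 9 had a member peak, and 2 rose in each genotype. Of 24 writers, erasers and readers of m6A, 3 had one, namely Wtap (2 peaks), Rbm15 and Alkbh5. In WT none passed, and in Adap-/- 1 rose, the start codon peak of Wtap, with 1.31 from 13 and 7 to 26 and 16 reads. The 10 macrophage identity genes with 11 member peaks had a median ratio of IP to input of -0.52 and a median input change with LPS of -0.78 in WT and -0.56 in Adap-/-. Cd68 had -0.11 in WT and -0.16 in Adap-/-, the lysozyme gene Lyz2 -0.78 in WT and -0.63 in Adap-/- and the adaptor gene Tyrobp -0.82 in WT and -0.56 in Adap-/-. By contrast Cd14, the LPS co-receptor, had 0.90 in WT and 2.19 in Adap-/- and the scavenger receptor gene Msr1 1.28 and 1.32. At both thresholds 1 of the 11 peaks rose and none fell in WT, and 2 rose and 2 fell in Adap-/-. In the m6A comparison of the genotypes after LPS, 2 of the 11 were called lower at the looser rule, beside 2.82% of all peaks, and none higher.

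The m6A ratio after LPS in WT gave no member peak, and 0% of all peaks, at an adjusted p of 0.05 in edgeR. At the looser rule 27 member peaks (2.42%, beside 2.69% of all peaks) were called higher and 49 (4.39%, beside 5.13% of all peaks) lower, and both shares were below those over all peaks. DESeq2 called 18, with no adjusted p for 677. The 76 looser calls were 39 without WT LPS replicate 1, 38 without WT LPS replicate 2, 39 without WT mock replicate 1 and 176 without WT mock replicate 2. Of the 49 lower calls, 42 lay among the 146 member peaks whose input rose by more than 2 on the log2 scale (28.8%, against 40.9% of 711 other peaks). Of 39 whose input fell by more than 2, 9 were called higher (23.1%, against 24.8% of 314 other peaks). WT mock IP 1 held LPS-raised transcripts and the WT LPS IP libraries LPS-lowered ones, as given above, and their part in these calls was not tested. WT mock IP 2, kept below, also held more of the LPS-raised transcripts than its inputs, 5.87% against 1.97% and 3.49%. The part of this in the calls below was not tested either. Without the doubted mock samples the counts were 42 higher and 27 lower, and 6 member peaks then passed an adjusted p of 0.05, all of them lower, on Pyhin1, Ifi205a, Nos2, SLFN12L, Oasl1 and Isg20.

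Ifi205a, an interferon-inducible gene of the HIN200 family, shows the pattern. Its ratios were 5.26 and 0.28 in WT mock and -2.74 and -3.31 in WT LPS, with a fitted difference of -6.87 ± 1.58 in all samples (unadjusted p = 0.00112, adjusted p = 0.207) and -3.31 without the doubted pair. WT mock replicate 1 was far above every other sample, and WT mock replicate 2 was still above both LPS samples. Isg20, an exonuclease gene, had 4.0 and -0.29 against -2.98 and -3.68 and Oasl1, a gene of the oligoadenylate synthetase family, 4.03 and 0.24 against -2.69 and -3.04. Their fitted differences of -6.43 and -6.10 were -3.02 and -3.15 without the pair. Il15 and Slc7a2, a transporter of arginine and other cationic amino acids, had -5.68 and -5.22, and -1.70 and -2.04 without WT mock replicate 1, when neither was called. On the higher side Eepd1 had -0.93 and -0.82 in WT mock and 1.06 and 0.59 in WT LPS (1.73 ± 0.32, unadjusted p = 0.000216, adjusted p = 0.204), with a range from 1.5 to 1.99 over the settings. Tmem51 had 3.59 ± 1.56 on its 5'UTR peak and 1.73 ± 0.53 on its start codon peak, and Rnf128, described above, 2.75 ± 0.71. The 5'UTR peak of Tmem51 lost its call without any 1 of the WT libraries. In all 3 of these genes the input fell with LPS.

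With all samples in, lower calls at the looser rule outnumbered higher ones after LPS in Adap-/- cells as in WT. This held for the set and for all peaks alike. No member peak and 0% of all peaks passed an adjusted p of 0.05 in edgeR, DESeq2 called 15, and at the looser rule 33 (2.96%, beside 2.44% of all peaks) were called higher and 58 (5.2%, beside 4.56% of all peaks) lower. Without the doubted mock samples the counts were 53 and 56, and 12 member peaks passed an adjusted p of 0.05. Lower then were Pyhin1, Ifi205a, Tgtp1 (2 peaks), Serpina3g, Oasl1, Isg20 and Trim30a, and higher were Itpkb, Fam20c, Tlnrd1 and Ptger1. Tulp4 had ratios of -0.84 and -0.96 in Adap-/- mock and 0.72 and 1.52 in Adap-/- LPS (2.14 ± 0.59, unadjusted p = 0.00369, adjusted p = 0.253). C16orf72 had 1.81 and 0.88 against 2.90 and 3.98 (2.0 ± 0.48), Itm2c -0.57 and 0.00 against 1.94 and 1.30 (1.95 ± 0.63), Tgm2 2.06 ± 0.66 and Rnpepl1 2.24 ± 0.77. The lowest were Il15, Ifi205a, Trim30a (ENSMUSG00000078616), SLFN12L and Slc7a2, from -5.76 to -5.19, and from -3.63 to -1.85 without Adap-/- mock replicate 2, when none of them was called. Rnpepl1 had 1.41 without Adap-/- mock replicate 1, 1.47 without Adap-/- LPS replicate 2 and 3.45 without Adap-/- LPS replicate 1, and lost its call in the first and the second case. The WT and Adap-/- comparisons share no library but each rests on 1 mock IP library that stood apart. Adap-/- mock IP 1, the one kept without the doubted samples, held 7.35% of the LPS-raised level against 2.6% and 2.8% in the Adap-/- mock inputs. The part of this in the calls was not tested.

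The last comparison set the LPS response of Adap-/- cells against that of WT cells. For the m6A ratio no member peak and 0% of all peaks passed an adjusted p of 0.05 in edgeR, and DESeq2 called none of the set. At the looser rule 14 (1.26%, beside 1.02% of all peaks) had a higher and 33 (2.96%, beside 1.74% of all peaks) a lower response in Adap-/-. The 47 calls were 17 without WT LPS replicate 1, 28 without WT LPS replicate 2 and 76 without WT mock replicate 2. Sh3glb1, an endophilin, and Itm2c had differences of 2.85 ± 1.2 and 1.98 ± 0.87, and Rnpepl1 and Rab21, described above, 2.82 ± 1.08 and 2.09 ± 0.83. Without WT mock replicate 1, a doubted sample, Sh3glb1 had 1.17, and without Adap-/- mock replicate 1 Rab21 had 0.98. Hcst, the signalling adaptor DAP10, had ratios of -0.19 and -0.34 in WT mock, 0.68 and 0.26 in WT LPS, 0.48 and 0.85 in Adap-/- mock and -0.57 and -1.29 in Adap-/- LPS. It was higher after LPS in WT and lower in Adap-/-, a difference of -2.46 ± 0.91 (unadjusted p = 0.0204, adjusted p = 1). BZW1 had -2.39 ± 0.90, the start codon peak of Tmem51 -2.17 ± 0.75, C1orf216 -2.02 ± 0.86 and Adgre1 -1.96 ± 0.88. Adgre1 had -1.17 without Adap-/- mock replicate 1 and C1orf216 -1.27 without Adap-/- LPS replicate 2. Each of the peaks named here lost its call when 1 library or another was left out.

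In input, 1 member peak (0.103%, against 0.132% of all peaks) had a higher and 10 (1.03%, against 0.971% of all peaks) a lower LPS response in Adap-/- at an adjusted p of 0.05 and an absolute log2 difference above 1. The lower ones were on Pyhin1, Ifi205a, SLFN12, SLFN12L (3 peaks), Ifih1, Oasl1, Irf7 and Clec4e, and Ifih1, Oasl1 and Irf7 were on the list of interferon-stimulated genes. Oasl1 rose from 22.5 and 19.5 to 1589 and 1532 CPM in WT and from 40.3 and 42.4 to 1157 and 1146 in Adap-/-, with a difference of the responses of -1.42 ± 0.19 (adjusted p = 0.000448). Adap-/- was thus higher in mock and lower after LPS. Ifih1, the RNA sensor MDA5, did the same, from 20.1 and 23.7 to 607 and 635 in WT and from 44.6 and 35.9 to 454 and 419 in Adap-/- (-1.39 ± 0.21, adjusted p = 0.00105). SLFN12L had -1.69 ± 0.22 on its main peak (adjusted p = 0.000309), where Adap-/- was higher in both conditions, at 2858 and 2682 against 1675 and 1777 CPM after LPS. The one with the higher response was Pa2g4, a growth regulator, which had 18.6 and 20.4 CPM in WT mock and 7.32 and 6.55 in WT LPS, against 5.04 and 7.55 in Adap-/- mock and 9.59 and 9.74 in Adap-/- LPS (2.08 ± 0.48, adjusted p = 0.0266). When 1 sample was left out, Pa2g4 kept its call only without WT mock replicate 1. The 11 calls were 7 without Adap-/- mock replicate 1 and 4, all lower, without Adap-/- mock replicate 2.

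**Figure D5:**
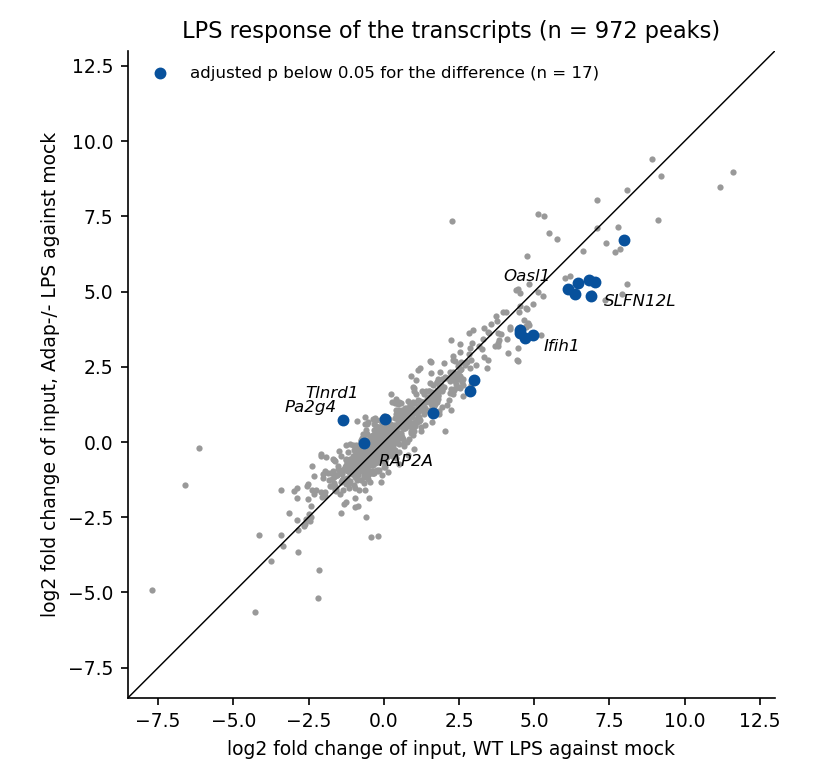
Log2 fold change of input reads with LPS in Adap-/- (vertical axis) against that in WT (horizontal axis) for the 972 tested peaks at 5'UTRs and start codons, with the line of equal response. The 17 peaks whose responses differed at an adjusted p below 0.05 are in blue, and 14 of them lay below the line, among them those of Oasl1, Ifih1 and SLFN12L.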

How the data were processed

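MeRIP-seq was performed by the authors on 8 RNA samples of peritoneal macrophages, and per the labels each RNA was divided after fragmentation to about 100 bases into an input part and a part for IP. The deposited peak table gives raw read counts for each of 16 libraries on merged peaks, and these counts are not normalised. The submitters' processing notes name Bowtie2 2.2.8, MACS2 2.1.2, DiffBind 2.8 and GRCm39, without the role of each. The table lists a peak once per gene (8094 lines), so its lines were joined to 7069 distinct peaks. No depth beyond the reads on peaks was used.

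Counts were scaled by TMM and tested over all peaks with edgeR 4.0.16 (glmQLFit and glmQLFTest, R 4.3.3, limma 3.58.1), with filterByExpr at a minimum count of 10. The m6A fit used all 16 libraries in 8 groups (7058 peaks, biological coefficient of variation 30.6%, 8 residual degrees of freedom). The input fit used the 8 input libraries in 4 groups (6794 peaks, 8.92%, 4 degrees of freedom). p-values were adjusted by Benjamini-Hochberg over all tested peaks and are two-sided. The filter left out 5 member peaks in the m6A fit and 148 in the input fit. Levels per length are input CPM per 100 bases of span. DESeq2 1.42.0 was run as an alternative, and figures and summaries used Python 3.11.15 with pandas 2.3.3, numpy 2.4.6 and matplotlib 3.10.9. The fit was tested on simulated data before use.

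The alternatives were other scalings, filters, a threshold of 1.5-fold, peaks of 1 gene only, a block for the replicate number and leaving out each replicate. Leaving out the doubted mock samples together, crossing the WT mock numbers and counting lines with no region were chosen after seeing the data. Members, gene lists and comparisons were all chosen with earlier results of these data known.

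By their labels, IP and input libraries of the same number come from one RNA. Their deviations from the group means correlated by 0.0775 (Adap-/- LPS), 0.0242 (Adap-/- mock), 0.0908 (WT LPS) and -0.098 (WT mock) over 7058 peaks. Across groups the samples share only a number, and there the input deviations correlated by -0.0575 to 0.0627.

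Peaks were named by rule. For each m6A comparison these were the 5 highest and 5 lowest fitted values among peaks past the looser rule with at least 10 mean input reads in each group and replicates that did not overlap (overlap was not considered for the difference of the responses), for each input comparison the same among those with an adjusted p below 0.05, the 10 highest and 5 lowest ratios among peaks with at least 20 mean input reads and the 5 highest input levels, the 4 most abundant members of each list, and the 5 widest differences within a gene in each direction. Some of the peaks so chosen are not reported here. Krcc1, Lpl, the 6 and 12 peaks called without the doubted samples and Pyhin1, Ifi205a, SLFN12, Irf7, Clec4e, Fpr1, Marcksl1 and Cxcl16 in the input responses and Cd14 and Msr1 were named after their values were seen. Symbols are those of the table, some in the form of another species. The share of peaks with GGAC was not run, since it needs the genome sequence.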

Additional observations from a re-analysis of the deposited data

Results flagged for a closer look

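The LPS response of the transcript, measured in input, differed between the genotypes by the test of the difference itself (edgeR) in 17 member peaks, 3 with a higher and 14 with a lower response in Adap-/-. All values are log2 differences of the LPS response, Adap-/- minus WT. Pa2g4 had 2.08 (adjusted p = 0.0266), Tlnrd1 0.72 (adjusted p = 0.0262) and the peak shared by RAP2A and ENSMUSG00000053706 0.64 (adjusted p = 0.0464). The 3 peaks of SLFN12L had -2.03 (adjusted p = 0.0217), -1.69 (adjusted p = 0.000309) and -1.44 (adjusted p = 0.0266). Oasl1 had -1.42 (adjusted p = 0.000448) and Ifih1 -1.39 (adjusted p = 0.00105). The other 9 peaks, all with a lower response in Adap-/-, were those of Irf7, Pyhin1, Ifi205a, SLFN12, Fpr1, Clec4e and Marcksl1 (2 peaks) and the peak shared by Cxcl16 and Zmynd15. Without Adap-/- mock replicate 2 only 4 member peaks, all with a lower response in Adap-/-, passed both thresholds.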

How the results depend on the processing

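Leaving out replicates one at a time, or both doubted mock samples, moved the counts of member peaks called (higher and lower together) as follows. For the m6A ratio, the 73 calls between genotypes after LPS ranged from 35 to 93, the 23 in mock from 15 to 94, the 76 with LPS in WT from 38 to 176, the 91 with LPS in Adap-/- from 67 to 128 and the 47 of the difference of the responses from 17 to 76. For input the 16 calls between genotypes after LPS ranged from 12 to 24, the 34 in mock from 21 to 51, the 353 with LPS in WT from 341 to 376, the 335 in Adap-/- from 312 to 348 and the 11 of the difference of the responses from 4 to 14. A minimum of 10 counts in every input library tests fewer peaks. It gave 13 m6A calls in mock, 58 with LPS in Adap-/- and 31 for the difference of the responses, and in input 9 between genotypes after LPS, 226 with LPS in WT and 209 in Adap-/-. Fitting the compared groups alone gave 13 m6A calls in mock. A threshold of 1.5-fold gave 66, 116 and 17 input calls between genotypes after LPS, in mock and for the difference of the responses, and DESeq2 gave 8 and 22 for the first pair. The causes were not tested. Calls over all peaks were not counted under these settings, nor where samples were left out above, so no share stands beside the counts. The ratio of the set minus other peaks ranged from -0.20 to -0.12 with samples left out, and was 0.013 with no minimum on input reads and 0.16 for 5'UTR peaks alone, so its sign holds for start codon peaks with enough reads. The difference within genes ranged from 0.13 to 0.19, and was 0.29 with no minimum and 0.78 for 5'UTR peaks alone.

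With the replicate number as a block, the m6A counts were 73, 25, 70, 93 and 38 and the input counts 15, 35, 351, 330 and 11, in the order above, and 1 peak (Olfr56) passed an adjusted p of 0.05 with LPS in WT and 2 (Olfr56 and Edn1) in Adap-/-. With the WT mock numbers crossed the m6A counts were 75, 27, 79, 95 and 34. None of the peaks named by rule in the comparisons reversed its direction in a setting that tested it. Values under the settings are not given here for single members of the gene lists. In the comparison of genotypes after LPS (edgeR), Lpl had -1.81 without WT mock replicate 1. Krcc1 had -2.10 there without Adap-/- LPS replicate 2. Depth limits the 5'UTR peaks most, with a median of 17.2 input reads against 57.8 for start codon peaks.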
